A study of Canis lupus familiaris with 109 samples.

Results

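The chromosome 9 run is a stretch of 26 measured cytosine positions over 165 bp at chr9:3827585-3827749 (CanFam3.1) whose methylation differed widely between blood libraries of dogs. The runs described here were chosen by how their methylation moved with it. A run is a stretch of at least 10 listed positions on 1 chromosome with gaps of up to 100 bp, its level in a library is the mean methylation fraction over its positions, and a run was selected on an absolute Pearson r of 0.5 or more with the chromosome 9 run over 95 libraries. Of 7274 runs, 152 had an r of 0.5 or more and are called rising (2.09% of the 7273 other runs), and 130 had an r of -0.5 or less and are called falling (1.79%). The names say only that a level was higher, or lower, in libraries where the chromosome 9 run was higher. They name no change in time. Because r chose the runs, every r over these libraries is a description and carries no test.

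The study measured DNA methylation in whole blood of domestic dogs by bisulfite sequencing of captured regions, and its title names the translation of dog age to human age. The labels list 109 samples: 94 first captures of the main table with ages from 0.134 to 14.5 years, 8 samples set apart for low coverage with ages from 0.455 to 9.33 years, 6 repeat captures from 0.384 to 15.5 years, and 1 first capture of the repeat table at 15.5 years. Tissue, age and, where known, sex are what the labels record of each animal, and no treatment is named. None of the 102 library codes in the tables of fractions (95 in the main table, 7 in the repeat table) is found in a sample's title or description, which leaves every library without an age, a sex or a labelled group. Values are therefore given as ranges and medians over unassigned libraries.

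In mammals, methyl groups sit mostly on cytosines that are followed by guanine (CpG). CpG-dense stretches are often promoters and are then largely free of methylation, while the sparse CpGs of the rest of the genome are mostly methylated; stretches at middle levels are those where the molecules of a sample differ from each other. Blood is a mixture of white cell types with different methylation at lineage genes, and a bulk fraction averages over all of them. A different share of a cell type and a different methylation within cells cannot be told apart here. No genome or annotation of the build of the tables was used, so runs are named by position without a gene, and no base sequence is shown.

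Fractions of the chromosome 9 run went from 0.0127 in the lowest library to 0.712 in the highest, with a median of 0.131 over 95 libraries and quartiles of 0.0873 and 0.223. The libraries were not spread evenly. Of the 95, 68 lay under 0.2, 16 between 0.2 and 0.5, and 11 over 0.5. All 11 had A1, A3 or A4 as the second element of their code, an element that the labels do not explain. The 4 libraries coded A1 had levels of 0.613, 0.617, 0.685 and 0.712. The 6 coded A4 split into 2 at 0.0381 and 0.0492 and 4 from 0.581 to 0.708, and the 6 coded A3 into 2 at 0.139 and 0.178 and 4 from 0.419 to 0.543. The 79 libraries of all other codes lay between 0.0127 and 0.377, with a median of 0.12, so that they overlapped the low A3 and A4 libraries and none of the A1 libraries.

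**Figure D1:**
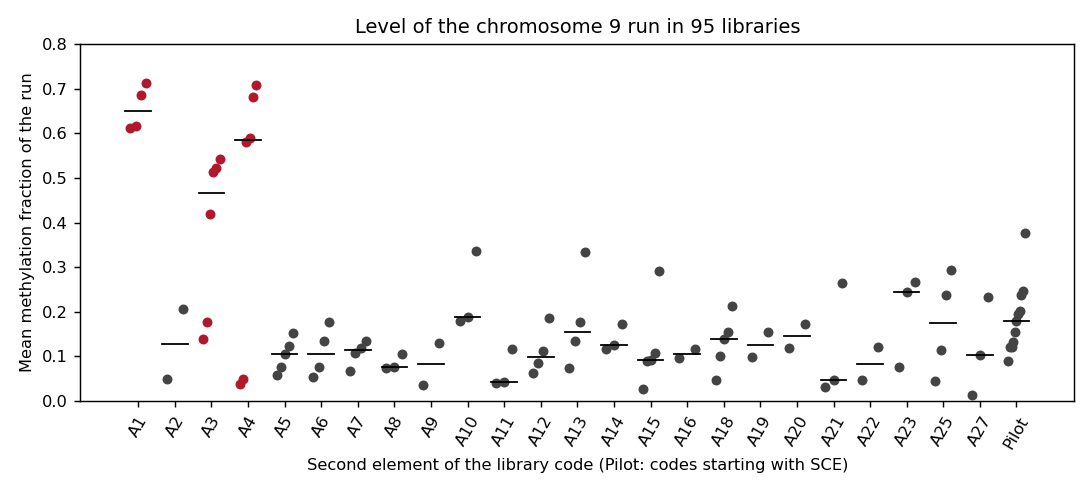
Mean methylation fraction of the chromosome 9 run (vertical axis) in each of 95 libraries (points), by the code's second element (horizontal axis), with the median of each code as a line; codes A1, A3 and A4 are in red. All 11 libraries over 0.5 carry one of these 3 codes, and 4 libraries with the code A3 or A4 lie under 0.2.

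The positions of the chromosome 9 run moved as a block. Each position had an r of 0.698 to 0.942 (median 0.904) with the mean of the other positions of the run, and the median fraction of each position lay between 0.1 and 0.2. Some positions, that of lowest r among them, reached a fraction of 1. Such values were kept in this run, since 1.0 was replaced only at positions with a median under 0.05. In the A1 libraries the medians of the 26 positions were between 0.495 and 0.845, against 0.08 to 0.19 in the 79 libraries of other codes. Of the 26 positions, 24 lie at adjacent coordinates, as the cytosines on both strands of a CpG do, so the run holds fewer CpGs than positions. Within 1 Mb there are 19 other runs, the nearest starting 144007 bp away, with r from -0.344 to 0.382. Of these 19, 0 are members. Over all other runs 2.09% were rising and 1.79% falling, so nothing is read from that count.

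Of the rising runs, the one with the largest r was chr5:67374771-67375003 (29 positions, r = 0.87), a nearly unmethylated stretch. Its lowest library was at 0, its median at 0.0131 and its highest at 0.211. The A1 libraries stood at 0.164 to 0.211 and the 79 of other codes at 0 to 0.04, without overlap. The run chr38:743196-743290 (10 positions, r = 0.87) showed a graded pattern instead, from 0.0336 through a median of 0.16 to 0.56. Its A1 libraries (0.324 to 0.527) overlapped the other codes (0.0336 to 0.405). At chr18:47631833-47632117 (23 positions, r = 0.86) levels went from 0.0183 through 0.077 to 0.554, and the highest library of the other codes, at 0.383, is the one coded Pilot with the number 5. That library also had the highest level of the chromosome 9 run among the other codes, 0.377.

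The next rising runs by r lay at different median levels. Some were nearly unmethylated in most libraries: chr20:39889658-39889875 (median 0.005, highest 0.109), chr4:68675173-68675299 (median 0.0223, highest 0.142), chr6:40821767-40822047 (median 0.0364, highest 0.217) and chr20:48159617-48159815 (median 0.0664, highest 0.386). The run chr20:49214478-49214639 had a median of 0.0882 and reached 0.35, and its A1 libraries (0.221 to 0.286) lay above all 79 libraries of other codes (0.0376 to 0.171). At middle levels, chr2:11044022-11044080 went from 0.204 through 0.396 to 0.861, and chr7:6224733-6224999 from 0.506 through 0.62 to 0.851. In the latter the A1 libraries lay close together, from 0.815 to 0.831. The widest rising run, chr26:5330973-5331232, went from 0.121 to 0.929 with a median of 0.459 and an r of 0.78. Its A1 libraries sat at 0.888 to 0.929, above the other codes (0.121 to 0.867). The rising run with the most positions, chr9:10369998-10370307, holds 59 positions and moved little, from 0.513 to 0.706 (r = 0.5).

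The falling runs of largest r were stretches that are methylated in most libraries. The run chr20:53720512-53720670 (17 positions, r = -0.88) had a highest library of 0.958, a median of 0.884 and a lowest of 0.532. In the A1 libraries it stood at 0.532 to 0.634 and in the other codes at 0.782 to 0.958. At chr22:1780062-1780449 (20 positions, r = -0.88) the median was 0.896 and the A1 libraries were at 0.365 to 0.483, against 0.7 to 0.948 in the other codes. The low end of that range, 0.7, is again the library coded Pilot with the number 5. The run chr36:2549663-2550538 (52 positions over 876 bp, r = -0.87) had a narrow range in the other codes, 0.88 to 0.947, and 0.712 to 0.781 in the A1 libraries. The falling run chr9:24868760-24869054 (r = -0.81) went from 0.298 through 0.82 to 0.957.

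**Figure D2:**
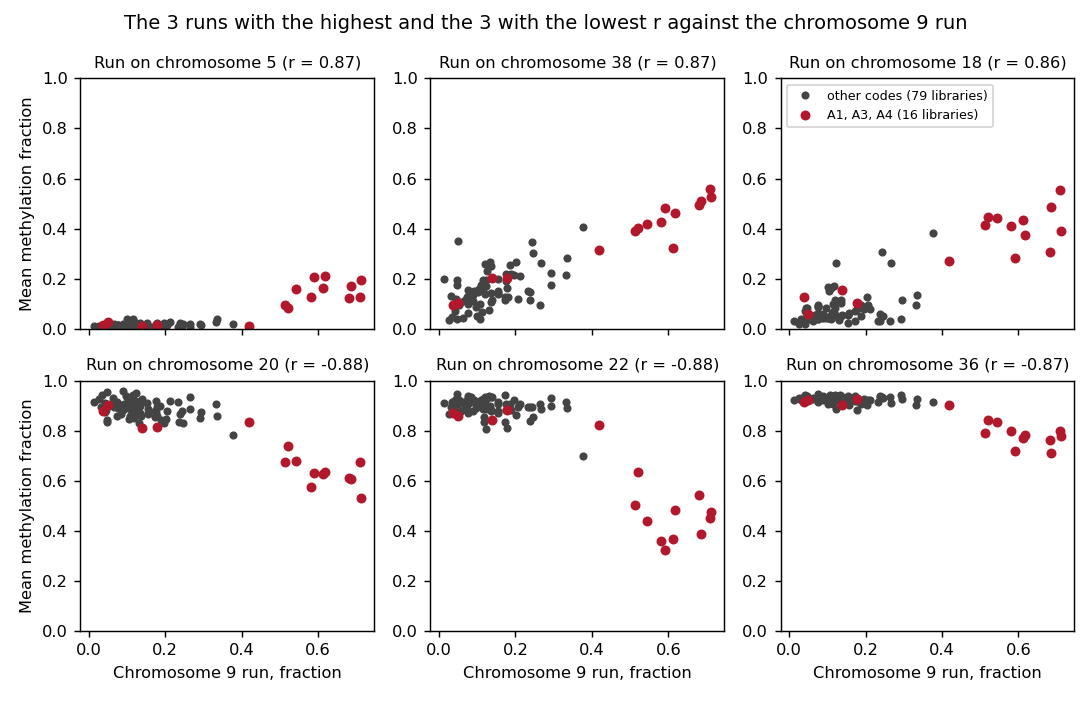
Mean methylation fraction of 6 runs (vertical axes) against that of the chromosome 9 run (horizontal axes) in 95 libraries (points), for the 3 rising runs of highest r (upper row) and the 3 falling runs of lowest r (lower row); red points are the 16 libraries coded A1, A3 or A4. The 4 red points on the left of each panel are the A3 and A4 libraries with a low chromosome 9 run, and they lie among the dark points.

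Of the remaining falling runs among the leading 10, 5 had medians over 0.7: chr16:15521963-15522066 (0.935), chr17:37363130-37363375 (0.886), chr9:25896275-25896372 (0.881), chr8:46972763-46972914 (0.812) and chr28:6686656-6686908 (0.771). Their lowest libraries were at 0.566, 0.728, 0.691, 0.443 and 0.483. The other, chr2:36046607-36046873, lay at a middle level with a median of 0.451 and a range from 0.214 to 0.597. The falling run with the most positions, chr10:47400050-47400603 (53 positions, r = -0.76), had a median of 0.252. Its A1 libraries, at 0.0675 to 0.0783, were all below the other codes, at 0.112 to 0.368. The widest falling run, chr27:1213231-1213382, went from 0.025 to 0.763 with an r of -0.55. There the lowest library belonged to the other codes, and the A1 libraries (0.0464 to 0.123) fell inside their range.

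The A3 and A4 libraries with a low chromosome 9 run were also near the other codes in the leading members. At chr22:1780062-1780449 the A3 libraries ranged from 0.439 to 0.884 and the A4 libraries from 0.323 to 0.872, so each code spanned nearly the whole distance between the A1 libraries and the rest. Over all members the median level per library split in the same way in the A4 libraries, and less clearly in the A3 libraries. The median over the 152 rising runs was 0.325 to 0.411 in the A1 libraries and 0.15 to 0.337 in the 79 of other codes, where its median was 0.208. In the A4 libraries with the chromosome 9 run at 0.0381 and 0.0492 it was 0.2 and 0.16, and in the other 4 A4 libraries 0.358 to 0.473. For the 130 falling runs the median level was 0.217 to 0.253 in the A1 libraries and 0.306 to 0.514 in the other codes. It was 0.436 and 0.389 in the low A4 libraries and 0.23 to 0.277 in the other 4. In the A3 libraries with the chromosome 9 run at 0.139 and 0.178, the rising median was 0.204 and 0.288. Their falling median was 0.331 and 0.349. The library L7_A3, with the chromosome 9 run at 0.419, had medians of 0.301 and 0.317, inside the ranges of the other codes. The remaining A3 libraries had rising medians of 0.347 to 0.385 and falling medians of 0.254 to 0.304.

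Counted run by run, all 4 A1 libraries lay above all 79 libraries of other codes in 16 of the 152 rising runs (0.22% of all runs tested), and below them in 22 of the 130 falling runs (0.399%). The 16 runs are all the runs of the table with that pattern, and the 22 are part of 29. These counts rest on the libraries that chose the members, and nothing is read from them.

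At the threshold the values were as follows. The rising runs just inside were chr30:34737251-34737331 (r = 0.502) and chr20:44975383-44975516 (r = 0.501), and the runs just outside were chr17:21071078-21071407 and chr24:3562728-3562873, both at r = 0.497. The falling runs just inside were chr8:32444263-32445169 (r = -0.502) and chr19:31115704-31115902 (r = -0.501), and those just outside were chr8:35682824-35682987 (r = -0.499) and chr9:15148092-15148522 (r = -0.498). Medians of these 8 runs lay between 0.0575 and 0.786. Over all members r had a median of 0.61 in the rising and -0.57 in the falling runs, with 11 rising runs over 0.8 and 4 falling runs under -0.8.

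The members differed from the other runs in their median level over libraries, which the rule did not use directly. The median level was 0.21 for rising and 0.375 for falling runs, against 0.00667 over all runs. Among the 152 rising runs 48 had a median under 0.1, 89 between 0.1 and 0.8, and 15 over 0.8. Among the 130 falling runs the counts were 12, 89 and 29. Over all runs 71.3% lay under 0.1, 13.4% between 0.1 and 0.8, and 15.4% over 0.8. Expressed the other way, 9.17% of the 971 other runs at middle levels were rising and as many, 9.17%, were falling. Of the 5184 runs under 0.1, 0.926% were rising and 0.231% falling, and of the 1118 runs over 0.8, 1.34% were rising and 2.59% falling.

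Middle-level runs also varied more between libraries. Their median standard deviation over libraries was 0.0455, against 0.0034 in runs under 0.1 and 0.0221 in runs over 0.8. For members of all levels, the median range over libraries was 0.278 in rising and 0.273 in falling runs, against 0.0383 over all runs. The share of runs that are members went from 0.228% where the standard deviation over libraries was under 0.01 to 42.1% where it was 0.08 or more. Per step of 0.1 in the chromosome 9 run, the median slope was 0.0195 in rising and -0.0195 in falling runs. The slopes went from 0.00127 to 0.0982 and from -0.00323 to -0.0767, and 15 of the 282 runs had a slope steeper than 0.05 in either direction. No slope reached 0.1, that of the chromosome 9 run with itself.

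In shape, members were slightly longer and sparser. The median length was 204.5 bp for rising and 229.5 bp for falling runs against 184 bp over all runs, with medians of 12, 14 and 16 positions and of 7.01, 7.54 and 9.46 positions per 100 bp. In rising runs 33.3% of positions had a neighbour at the next coordinate, in falling runs 21.7% and over all runs 22.5%. None of the members held a position that looks like a sequence variant, meaning 3 classes of libraries (under 0.12, over 0.88, and from 0.3 to 0.7) that each hold 8 or more. Such positions occur in 27 of the 7274 runs (0.371%). Within members, 89.4% of the 2339 positions of rising runs had a positive r and 93.7% of the 2368 positions of falling runs a negative one. These signs are largely set by the selection, which used the mean of the same positions.

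Members were spread over the genome. Rising runs lay on 33 chromosomes and falling runs on 34 of the 38 in the table. The highest shares of rising runs were on chromosome 20, with 18 of 399 runs (4.51%), and chromosome 9, with 18 of 449 (4.01%). For falling runs the highest shares were 7 of 73 on chromosome 36 (9.59%) and 11 of 191 on chromosome 3 (5.76%). Chromosome 33, with 48 runs, held none.

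Runs are clustered in the table, and 75.5% of all 7274 have another run within 100 kb. Within that distance of each other there were 21 groups with 52 members, of which 13 held 1 direction and 8 both. Whether members lay closer together than other runs was not tested. The largest group holds 5 of the 10 runs between 24809346 and 24873775 on chromosome 9, and its members went opposite ways. The rising runs chr9:24859679-24859836 (0.01 to 0.134, r = 0.65) and chr9:24873308-24873775 (0 to 0.0183, r = 0.55) lie 8923 bp and 4253 bp from the falling run chr9:24868760-24869054, with which they had r of -0.56 and -0.61. The other members are chr9:24844685-24845085 (0.131 to 0.38, r = 0.52) and chr9:24809346-24809465 (0.455 to 0.911, r = 0.52). The next groups, 3 in number and named after their values were seen, had 4 members each. On chromosome 20, all 4 between 39387714 and 39550017 were rising, of 8 runs there. On chromosome 36, all 4 between 19891082 and 19980611 were falling, of 16 runs, with medians from 0.0618 to 0.171. Between 49196409 and 49252314 on chromosome 20, 2 falling runs that lie 147 bp apart (r = 0.81 with each other) are followed by 2 rising runs.

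Positions beside members had the direction of the member more often than positions beside other runs. A run ends where the next listed position is over 100 bp away, so positions outside runs were not used by the rule. Among all 156915 positions outside runs, 2.32% had an r of 0.5 or more with the chromosome 9 run and 0.916% an r of -0.5 or less. At 101 to 200 bp from a falling run, 8 of 73 positions were at -0.5 or less and 0 at 0.5 or more, and at 201 to 500 bp the counts were 25 and 0 of 177. Around runs that are no members, 4 of 2372 and 43 of 7090 positions were at -0.5 or less at these distances. Beside rising runs, 5 of 34 positions at 101 to 200 bp and 4 of 76 at 201 to 500 bp were at 0.5 or more, against 31 of 2372 and 49 of 7090 around other runs. At 101 to 200 bp the median level was 0.33 beside falling runs, 0.65 beside rising runs and 0 around other runs. At 201 to 500 bp it was 0.16, 0 and 0. Positions of like level were not compared. At 501 to 1000 bp the shares were 6.84% beside falling runs (1.03% around other runs) and 8.85% beside rising runs (1.13%). At 1001 to 5000 bp the shares were 4.36% beside falling runs (1.44% around other runs) and 7.59% beside rising runs (2.12%). The median level there was 0.15 beside falling runs, 0.815 beside rising runs and 0.5 around other runs. These positions share the libraries with the members, so the counts are no second measurement of the pattern. Beside rising runs the share did not fall steadily with distance, and no extent is read from it.

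Taken pair by pair over the 95 libraries, rising runs had a median r of 0.445 with each other, falling runs 0.514, and rising with falling runs -0.418. Of the 19760 pairs of a rising and a falling run 19759 had a negative r, a sign that the selection largely sets. Over the 79 libraries of other codes the same medians were 0.184, 0.263 and -0.13.

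The relation was also computed without the 16 libraries coded A1, A3 and A4, a comparison chosen after the values were seen. Over the other 79 libraries 28 of the 152 rising runs still had an r of 0.5 or more (0.536% of all runs did, 39 in number), and 2 of the 130 falling runs had -0.5 or less (0.0825%, 6 in number). The sign was the same in 151 rising and 124 falling runs, with a median r of 0.348 and -0.222 against 0.0499 over all runs. The 2 falling runs are chr3:91692085-91692163 (r = -0.529 over the 79, median level 0.925) and chr5:21671250-21671415 (r = -0.549, median level 0.725), and the rising run with the other sign is chr6:31042550-31042925 (r = 0.57 over 95 and -0.3 over 79). These 3 are named because the counts are small, after their values were seen. The highest r over the 79 libraries was 0.679, at chr18:45571480-45571620, a run outside the leading 10 whose levels went from 0.0309 through 0.148 to 0.563. Of the leading rising runs, chr38:743196-743290 kept 0.53, while chr4:68675173-68675299 was at 0.13 and chr20:39889658-39889875 at 0.17. The leading falling runs on chromosomes 20, 22 and 36 were at -0.39, -0.34 and -0.19. Within the 16 coded libraries all 282 members had the sign of their set, with median r of 0.746 and -0.726. The selection largely sets this sign, since all 11 libraries with the chromosome 9 run over 0.5 are among the 16. The share of all runs with either sign is not given for the 16 or the 79 libraries, and nothing is read from the sign counts. Within the 16, 145 rising and 123 falling runs passed 0.5 in size, as did 6.53% and 7.82% of all runs in the respective direction.

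**Figure D3:**
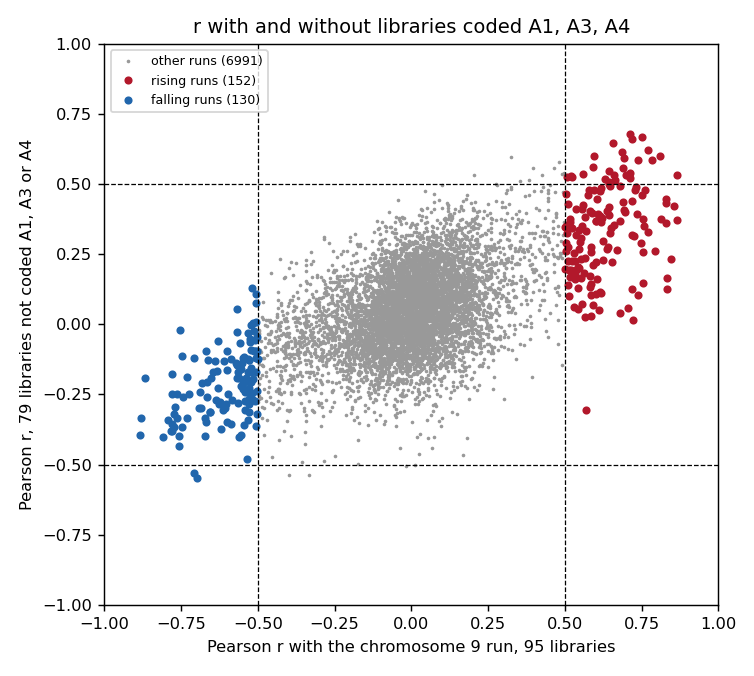
Pearson r with the chromosome 9 run over 95 libraries (horizontal axis) and over the 79 libraries not coded A1, A3 or A4 (vertical axis) for each of 7273 runs (points), rising runs in red, falling runs in blue and all others in grey, with dashed lines at -0.5 and 0.5. On the vertical axis 28 rising runs lie past the upper line, as do 0.536% of all runs. Past the lower line lie 2 falling runs and 0.0825% of all runs. The sign of their set is kept by 151 rising and 124 falling runs, from which nothing is read.

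The first element of the library code gave another division. In each of the prefixes L1 and L3 to L9 the median r was 0.681 to 0.823 for rising and -0.647 to -0.763 for falling runs, over 8 to 11 libraries that include 1 or 2 coded A1, A3 or A4. Prefix L2 was different. Its A3 and A4 libraries are low in the chromosome 9 run, its highest level was 0.333, and the median r was 0.215 and -0.11, with 107 of 152 rising and 77 of 130 falling runs on their own side of 0. Over all runs in L2 the median r was 0.034 and 53.1% were positive, and nothing is read from the falling count beside that share. The prefix SCE, the 11 Pilot libraries, holds no A1, A3 or A4 library and had levels from 0.0896 to 0.377. There the median r was 0.311 and -0.43, with 132 rising and 117 falling runs on their own side, while 49.3% of all runs were positive and their median r was -0.0088.

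Some properties of whole libraries moved with the chromosome 9 run as well. The mean fraction over all positions, which went from 0.369 to 0.389, had an r of 0.35 with it over 95 libraries, a Spearman rho of 0.37, and an r of 0.33 without the 2 libraries farthest from the median and 0.15 over the 79. The mean of positions with a median under 0.1 had r of 0.15 over 95 and 0.51 over the 79 libraries. For the mean of positions with a median over 0.8 these values were 0.084 and -0.249. Over the 79 both were larger in size than the members' median r of the same sign (0.348 in rising and -0.222 in falling runs). The number of values of exactly 1.0 at nearly unmethylated positions and the share of filled-in values had r of -0.0031 and -0.041. The part of these properties in the members' r was not tested.

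The repeat table allowed the members to be followed in libraries that the rule did not use. It holds 6 libraries with codes starting with CHYB6 and the numbers 1, 5, 6, 7, 8 and 10, and each number also occurs on a Pilot library. The Pilot libraries of numbers 5, 6, 7, 8 and 10 are rows of the main table and were used by the rule. The labels do not explain the numbers, but they give each of the 6 repeat captures the same age as a first capture. Equal numbers may thus mean the same dog, and the CHYB6 libraries are not treated as independent of the rule. In the CHYB6 libraries the chromosome 9 run stood at 0.214, 0.326, 0.0873, 0.21, 0.133 and 0.149 in the order of these numbers. The Pilot libraries of the same numbers were at 0.16, 0.377, 0.0896, 0.247, 0.18 and 0.121. Number 5 was highest and number 6 lowest in both. No library of this table reached the levels of the A1 libraries.

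Member levels were more alike within a number than between numbers. The absolute difference between a CHYB6 and a Pilot library had a median of 0.0235 in 149 measured rising runs and 0.0236 in 130 falling runs where the number was the same, and of 0.0392 and 0.0498 where it differed. Over all 7163 measured runs these medians were 0.00511 and 0.00577. The same-number difference was the smaller in 120 of 149 rising runs (80.5%), in 116 of 130 falling runs (89.2%) and in 64.2% of all runs. The median standard deviation over libraries of the main table was 0.0543 in rising, 0.0538 in falling and 0.00686 in all runs. Runs of like spread that are no members were not compared here, so nothing is read from the difference between these shares.

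Over the 6 CHYB6 libraries, 78 of 149 rising runs had an r of 0.5 or more with the chromosome 9 run (13.1% of all runs did), and 94 of 130 falling runs an r of -0.5 or less (16.6%). The sign was that of the set in 126 rising and 122 falling runs, with median r of 0.51 and -0.68. Of all runs, 48.7% had a positive r, and the median was -0.016. The 6 libraries were chosen after the values for all 7 libraries of the repeat table had been seen, because number 1 occurs on 2 of the 7. Over the 7 the counts were 70 and 86 (10.8% and 13% of all runs). Leaving out each of the 6 in turn gave 65 to 92 rising and 71 to 102 falling runs, the lowest of both without number 5, where 21.4% of all runs passed in each direction. Among runs of like spread in the main table (a standard deviation of 0.04 to under 0.08), 24 of 47 rising runs passed 0.5 and 46 of 61 falling runs -0.5, against 9.94% and 27.2% of 463 runs that are no members.

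**Figure D4:**
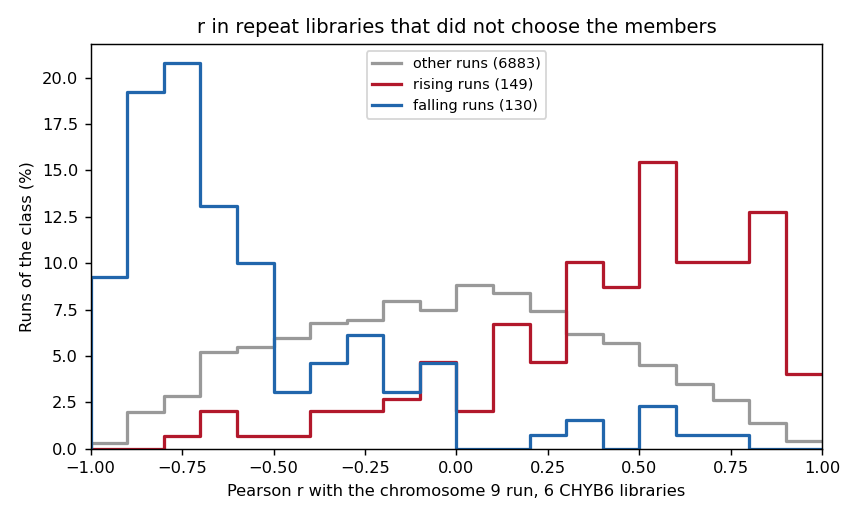
Pearson r with the chromosome 9 run over 6 CHYB6 libraries (horizontal axis, in bins of 0.1) and the percent of runs of each class in the bin (vertical axis), for rising runs (red), falling runs (blue) and other runs (grey). Rising runs have a median of 0.51 and falling runs of -0.68, and 78 and 94 of them lie past 0.5 and -0.5. Of all runs, 13.1% and 16.6% do.

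Single members differed in this respect. The falling run chr9:24868760-24869054 stood at 0.719, 0.532, 0.873, 0.777, 0.849 and 0.79 in CHYB6 numbers 1, 5, 6, 7, 8 and 10, an r of -0.97, with number 5 lowest and number 6 highest, the reverse of the chromosome 9 run. The falling run chr2:36046607-36046873 had the same r, and the widest rising run, chr26:5330973-5331232, went from 0.346 in number 6 to 0.863 in number 5 (r = 0.89). The rising run of largest r in the main table went the other way. At chr5:67374771-67375003 the 6 levels lay between 0.0125 and 0.0257, with an r of -0.61. That range is within the one of the 79 libraries of other codes (0 to 0.04).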

How the data were processed

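Whole-blood DNA of dogs was bisulfite converted and captured with the Roche SeqCap Epi protocol, per the labels' protocols. Bismark 0.14.3, Bowtie2 2.1.0 and Trim Galore are the tools named, and CanFam3.1 the build, per the submitters' processing notes, which give no role for each. The deposited values are methylation fractions per position and library, without read counts, so depth is unknown and no interval is given. The main table holds 95 libraries and 304191 positions, and 7 libraries with 1812277 positions form the repeat table. All 102 library rows match no sample and enter no group. Whether coordinates count from 0 or 1 was not settled, leaving 1 bp of uncertainty.

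Where a position's median was under 0.05, a value of 1.0 (tolerance 1e-06) was replaced by 0.01, a step taken over from earlier work on these tables; how such values arose is not given in the sources used here. Values with more than 2 decimals (0.778% of cells) were treated as filled in and kept. In the repeat table a run needed 5 positions. Tested on 2000 simulated runs, the selection found 100 of 100 planted rising runs (slope 0.5) and 100 of 100 falling runs (slope -0.2). The simulation used mostly middle levels, a fixed depth and independent noise, unlike these data. It checks the code and does not measure how many runs would be found or missed here. Named runs are the chromosome 9 run, the 10 of largest absolute r per set, the widest, that with most positions, the 2 nearest the threshold on either side, members within 1 Mb of the chromosome 9 run and the largest group within 100 kb; runs outside this rule are marked in the text. The members, lists and comparisons were chosen with earlier results of these data known. No test was made, since r chose the members. Alternatives changed the threshold, the correlation, the run definition, the handling of values, and the libraries used. The table mapped to human probes was not analysed here. Computation ran in Python 3.11.15 (SciPy 1.17.1, NumPy 2.4.6), with figures from Matplotlib 3.10.9.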

Additional observations from a re-analysis of the deposited data

How the results depend on the processing

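The number of members depended on the libraries and on the definition of a run. Against 152 rising and 130 falling runs, rank correlation gave 40 falling runs, 32 of them members, and 115 rising runs, 88 of them members. Without the 16 libraries coded A1, A3 and A4, a setting added after seeing the data, 39 rising and 6 falling runs passed, and with the mean of each second code element taken out 78 and 24. A threshold of 0.4 gave 246 and 297, and one of 0.6 gave 84 and 56, by construction. The median over positions in place of the mean gave 100 and 85. Runs of at least 5 positions gave 601 and 377 of 18131, runs of at least 15 gave 50 and 60 of 4066, and gaps of up to 50 bp gave 101 and 84 of 6776. The cause of the other changes was not tested. Values as deposited, with 1.0 kept, gave 102 and 96, all of them members. Under the other settings run (filled-in values left out, gaps of up to 200 bp, prefix means taken out, and the libraries with most filled-in values, most values of 1.0, farthest from the median or coded Pilot left out) counts were 133 to 182 and 92 to 156. Leaving out each library in turn, also added later, gave 134 to 156 and 105 to 149. The r of the 36 other named runs had the main sign in all 360 values over 10 settings and was under 0.5 in size in 78. The 36 include the runs just outside the threshold, which were under 0.5 in the main setting too. Most of the 36 were named for their r in these libraries, which largely sets the sign, so nothing is read from it. Among all members, 151 of 152 rising and 124 of 130 falling runs had the main sign without the 16 coded libraries. The alternative on human-mapped probes was not run. No fit with a replicate block was made, since no result comes from a test; libraries that share a number were compared as pairs in the report.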
